A study of Homo sapiens with 16 samples.

Results

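The plasma cell transcription factors described here are 10 genes, chosen by symbol from the deposited read counts: IRF4, PRDM1, XBP1, IKZF1, IKZF3, POU2AF1, POU2F2, BCL6, PAX5 and BACH2. They are 10 of the 23354 genes in the table. The main comparisons are those of TAK-981 and of Dex with vehicle in each line, in which IRF4 fell and IKZF3, POU2AF1 and POU2F2 rose with TAK-981 in both lines, and BCL6 rose 16.3-fold with Dex in MM1S cells. The filter on low counts left 14215 genes to test, and 9 of the 10 passed it. PAX5 did not pass, with 62 counts over all 16 libraries.

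The cells were MM1S and MM1R, a pair of human multiple myeloma lines from 1 parental line, of which MM1S is sensitive and MM1R resistant to the glucocorticoid dexamethasone (Dex). Each line received vehicle, for which the labels give no time, or TAK-981 at 0.1 μM, Dex at 1 μM or both agents at those doses (combo) for 48 h. TAK-981 blocks the E1 enzyme that starts SUMO conjugation. Total RNA depleted of ribosomal RNA was sequenced in 2 libraries per group, 8 groups in all. The labels name no engineered deletion or transgene in any sample. The sensitive and the resistant state are each represented by 1 cultured line, and nothing in the labels says that the 2 libraries of a group came from separate cultures, so p-values measure only the spread between these libraries, which may be technical. In bulk RNA of this kind, fewer cells of a type and less RNA per cell cannot be told apart.

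A mature B cell becomes a plasma cell when one set of factors replaces another. PAX5, BCL6 and BACH2 hold the B cell and germinal centre state, and BCL6 and BACH2 repress PRDM1, which encodes Blimp-1. IRF4, Blimp-1 and XBP1 then drive the secretory plasma cell state, in which XBP1 expands the endoplasmic reticulum. Myeloma cells are malignant plasma cells that depend on IRF4, and the Ikaros factors encoded by IKZF1 and IKZF3 act above IRF4 and are the proteins that the cereblon ligase destroys when cells are given lenalidomide.

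Total counts per library ran from 15707587 to 24796539. Among 7 plasma cell markers, SDC1, TNFRSF17, SLAMF7, MZB1 and JCHAIN were at 145.9 CPM (counts scaled to library size) or more in every library, CD38 was lower at 6.74 to 44.9 CPM, and CD27 was near absent at 0 to 9 counts. Of 9 B lymphocyte markers, MS4A1 and CD22 had at most 2 counts in any library, whereas CR2 was at 49.2 to 75.9 CPM and CD79B at 16.3 to 36.2 CPM. Markers of T and NK cells included CD3D and NKG7 at 0 in all 16 libraries, and the highest marker of this list was NCAM1 at 2.50 to 13.1 CPM. The myeloid list summed to at most 4.12 CPM in any library, the stromal, endothelial and epithelial list to at most 13.7 CPM, and the erythroid list to at most 12.4 CPM.

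Promoter windows were read from RefSeq (GRCh38.p14), which held a window for 8 of the 10 genes, 13 windows in all. IKZF3 and POU2AF1 were not matched. Each window was cut to the 250 bases before the transcript start and searched on both strands for 8 letter patterns, which were the glucocorticoid receptor half-site AGAACA and its palindrome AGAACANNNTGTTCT, the interferon-type IRF site GAAANNGAAA, the ETS-IRF composite GGAANNGAAA, the BCL6/STAT-type site TTCNNNGAA, the octamer core ATGCAAA, the E-box CACGTG and the BACH/AP-1-type site TGACTCA. The half-site lies within the palindrome, and the GAAANNGAAA and GGAANNGAAA patterns can overlap. The 3 windows below are those that held a match among the windows of BCL6 and PRDM1. BCL6 is the factor whose mRNA moved most, and PRDM1 the gene that BCL6 and BACH2 are known to repress. PRDM1 window 1 held no match and is not printed. Capitals mark a matched pattern on either strand. The windows are BCL6 window 1 at chr3:187745469-187745718 (minus strand), BCL6 window 2 at chr3:187736502-187736751 (minus strand) and PRDM1 window 2 at chr6:106098691-106098940 (plus strand), each 5′ to 3′.
BCL6 window 1: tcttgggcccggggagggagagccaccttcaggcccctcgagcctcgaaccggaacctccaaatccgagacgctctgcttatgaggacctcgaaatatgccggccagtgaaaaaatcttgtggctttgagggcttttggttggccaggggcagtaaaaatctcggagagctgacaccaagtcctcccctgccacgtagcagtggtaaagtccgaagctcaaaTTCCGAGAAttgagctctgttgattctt
BCL6 window 2: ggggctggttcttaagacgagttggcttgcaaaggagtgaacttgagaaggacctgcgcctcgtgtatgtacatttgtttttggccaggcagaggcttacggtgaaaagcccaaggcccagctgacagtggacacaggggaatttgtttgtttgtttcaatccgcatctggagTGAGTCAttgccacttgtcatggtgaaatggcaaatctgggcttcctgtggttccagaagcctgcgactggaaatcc
PRDM1 window 2: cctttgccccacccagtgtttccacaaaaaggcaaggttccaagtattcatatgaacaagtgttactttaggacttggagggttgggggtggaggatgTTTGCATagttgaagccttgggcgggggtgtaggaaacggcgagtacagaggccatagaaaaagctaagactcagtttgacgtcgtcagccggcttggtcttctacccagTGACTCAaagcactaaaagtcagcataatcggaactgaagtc

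BCL6 window 1 held the BCL6/STAT-type site from −28 to −20 relative to the start, a pattern found in 6.57% of the 35116 windows of the same length. BCL6 window 2 held the BACH/AP-1-type site from −77 to −71, found in 4.2% of all windows. PRDM1 window 2 held an octamer core from −152 to −146, found in 3.94% of all windows, and a BACH/AP-1-type site from −42 to −36. IKZF1 window 2 held an octamer core from −25 to −19, and the PAX5 window held a glucocorticoid receptor half-site from −37 to −32, a pattern found in 12.4% of all windows. None of the 8 patterns was in the windows of IRF4, XBP1, POU2F2 and BACH2, nor in PRDM1 window 1 or IKZF1 windows 1 and 3. The interferon-type site, the composite site, the E-box and the palindrome, present in 3.02%, 2.41%, 6.34% and 0.00285% of all windows, were in none of the 13. A match is a run of letters and not a measured binding site.

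To order the factors by abundance, levels were compared per length, as CPM per kb of the gene length in the table. In vehicle-treated MM1S cells XBP1 stood highest at 318 ± 8.70 CPM per kb (SD, n = 2), followed by IRF4 at 193 ± 6.28, POU2AF1 at 174 ± 11.1 and PRDM1 at 135 ± 0.377 CPM per kb. These 4 genes lay above at least 98.0% of all genes tested on this scale. IKZF3 followed at 57.5 ± 0.156 and IKZF1 at 29.6 ± 0.293 CPM per kb. The B cell factors were lower, with BACH2 at 6.38 ± 0.757, BCL6 at 0.461 ± 0.0853 and PAX5 lowest at 0 and 0.0137 CPM per kb in the 2 libraries, and POU2F2 lay between BACH2 and BCL6 at 4.07 ± 0.164 CPM per kb.

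The order in vehicle-treated MM1R cells differed in 1 place. BACH2 stood below POU2F2, at 3.42 ± 0.186 against 5.34 ± 0.0993 CPM per kb (SD, n = 2). The ends of the order were alike, with XBP1 at 484 ± 17.6 and BCL6 at 0.406 ± 0.0155 CPM per kb, and PAX5 at 0.0221 CPM per kb in both libraries. The libraries of neighbours in the order did not overlap in either line, and the 4 most abundant genes had the order XBP1, IRF4, POU2AF1 and PRDM1 in both.

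**Figure D1:**
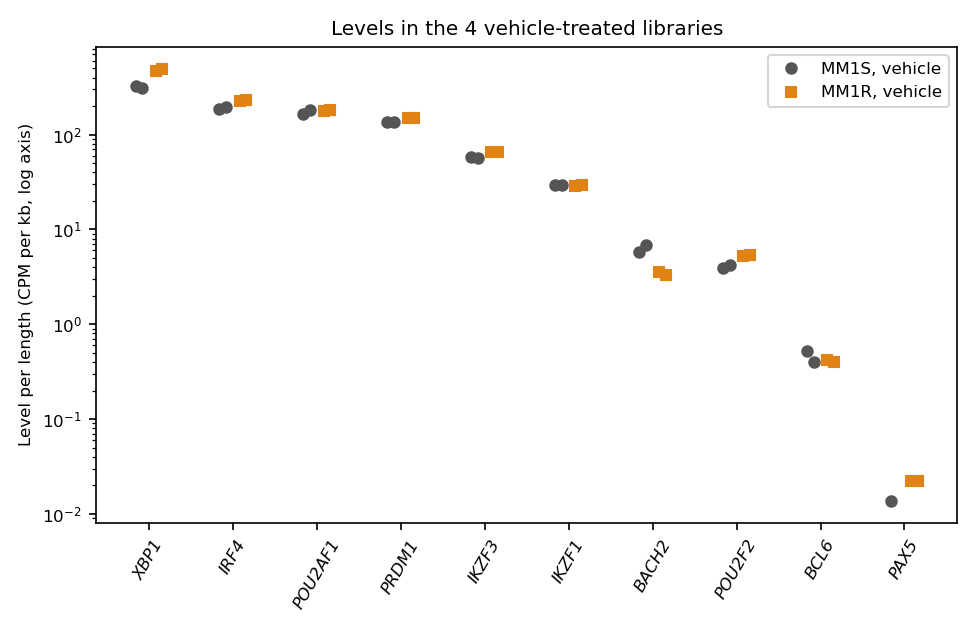
Levels of the 10 genes in the vehicle-treated libraries, as CPM per kb of gene length on a log axis. Each point is 1 library (circles MM1S, squares MM1R), and the MM1S library of PAX5 at 0 counts cannot be drawn on this axis. XBP1, IRF4, POU2AF1 and PRDM1 form the top of the range, and BCL6 and PAX5 the bottom.

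The effect of each drug alone was then examined against vehicle in each line, with edgeR's quasi-likelihood test and adjustment over all 14215 genes. All groups shared 1 estimate of the spread per gene, although their duplicates were not equally noisy. The chi-square per degree of freedom between duplicates was 21.4 for TAK-981 and 18.9 for Dex in MM1S. It was 2.1 (combo in MM1R) to 9.05 (Dex in MM1R) in the remaining groups. The shared spread may thus be too small for TAK-981 and Dex in MM1S. TAK-981 changed 5 of the 9 tested factors in MM1S cells, 4 higher (IKZF3, POU2AF1, POU2F2 and BCL6) and 1 lower (IRF4), where 49.0% of all genes tested were called. In MM1R cells TAK-981 changed 6 of 9, with BACH2 higher in addition and IRF4 again the only one lower, where 53.4% of all genes were called. Dex changed 7 of 9 in MM1S cells, 5 higher (BCL6, BACH2, POU2F2, IKZF3 and IKZF1) and 2 lower (IRF4 and POU2AF1), where 42.3% of all genes were called. The 2 TAK-981 counts are near what the background share would give for 9 genes. Over all genes tested, TAK-981 raised 3586 and lowered 3374 in MM1S, raised 3666 and lowered 3926 in MM1R, and Dex raised 2954 and lowered 3063 in MM1S, with median log2 fold changes of 0.037, 0.0043 and 0.011.

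Dex in MM1R cells changed 0 of 9, and 0% of all genes were called. At an unadjusted p under 0.05, edgeR gave 0 of the 9 factors and 395 of the 14215 genes, and DESeq2 called 0 genes with 159 at an unadjusted p under 0.05. The log2 fold changes ran from −0.45 to 0.024, and the intervals were widest for BCL6, at −0.45 (95% interval −0.99 to 0.096), and BACH2, with an interval of −0.20 to 0.20. For IRF4 the interval was −0.14 to 0.098 and for POU2AF1 −0.14 to 0.11.

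The difference between the lines in their response was tested directly. For Dex, 7 of the 9 factors had a line by Dex interaction, where 28.1% of all genes did. For TAK-981, 0 of 9 had a line by TAK-981 interaction by edgeR and 0 by DESeq2, with 3 at an unadjusted p under 0.05 by edgeR (POU2F2, BCL6 and BACH2), where 4.16% of all genes were called. BACH2 was nearest, at 0.43 (SE 0.13, edgeR adjusted p = 0.068).

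**Figure D2:**
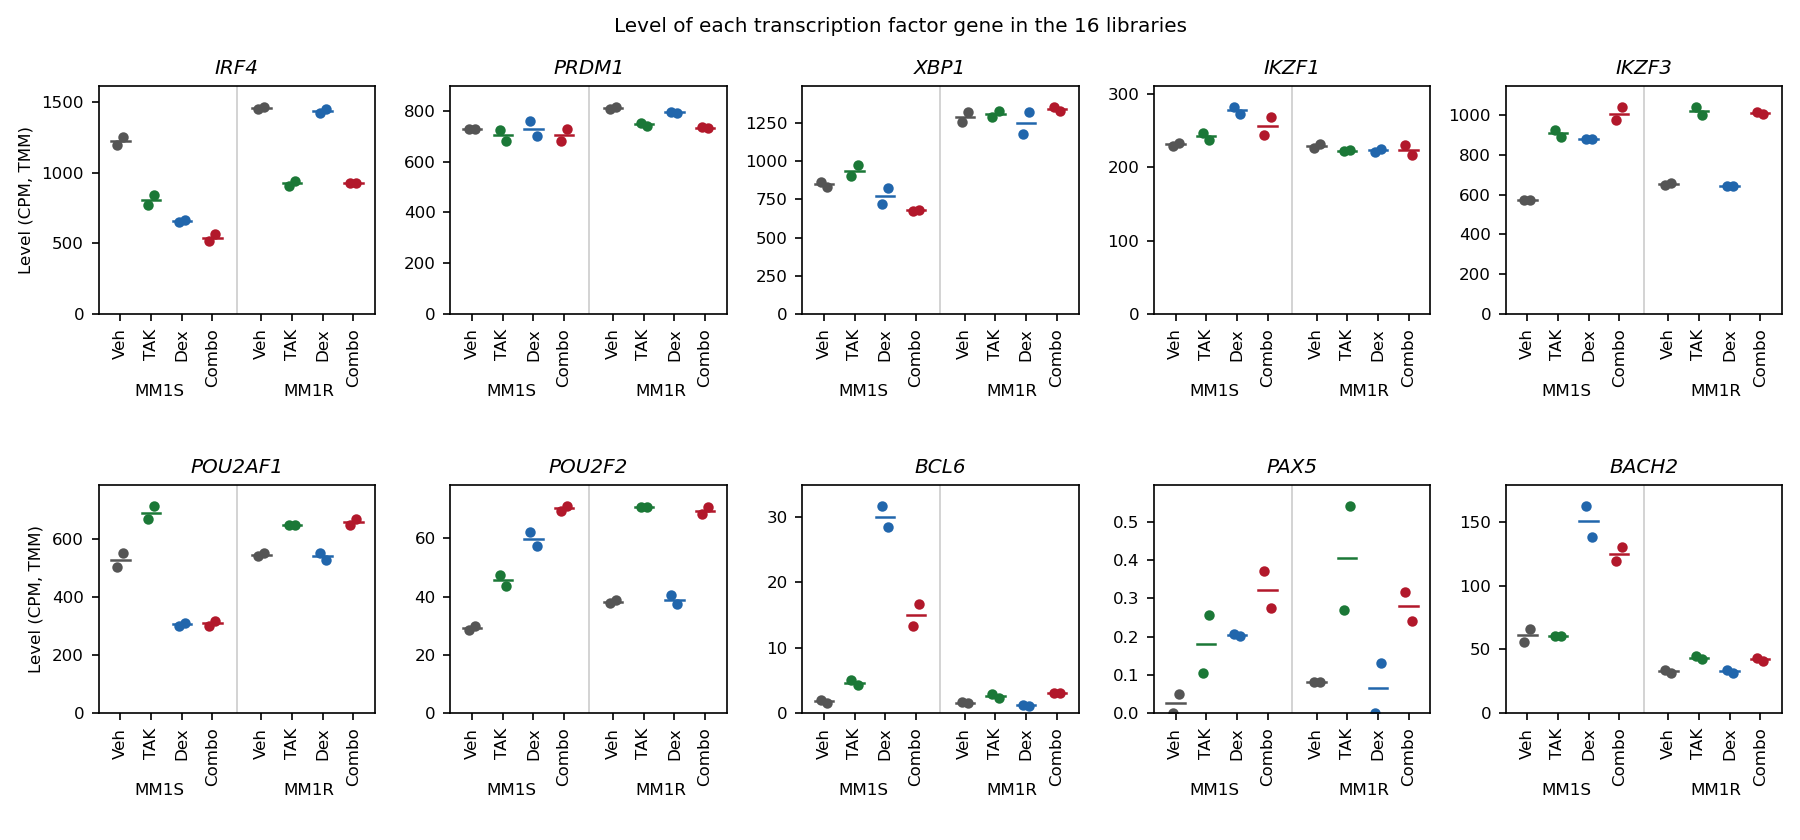
Level of each of the 10 genes in all 16 libraries, in CPM after TMM scaling, each panel with its own axis from 0. Points are single libraries, short lines are means of 2, and the grey line separates MM1S from MM1R. IRF4 is lower with TAK-981 in both lines and with Dex in MM1S, and BCL6 and BACH2 are highest with Dex in MM1S.

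**Figure D3:**
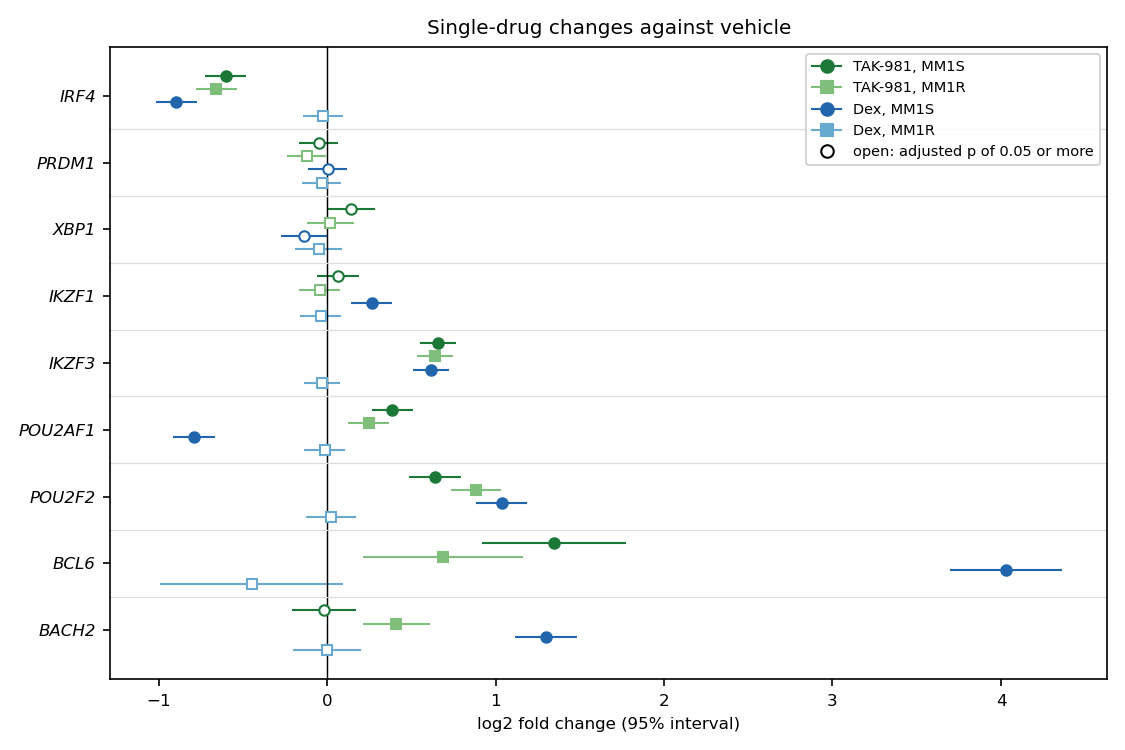
Log2 fold changes against vehicle of the 9 tested genes, with 95% intervals, for TAK-981 (green) and Dex (blue) in MM1S (circles) and MM1R (squares). Filled marks have an edgeR adjusted p under 0.05. BCL6 with Dex in MM1S, at 4.03, stands far to the right of all other marks, and the Dex marks of MM1R are all open.

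IRF4 is the factor on which myeloma cells are known to depend (chromosome 6, from 391739 to 411443, plus strand, hg19). In MM1S cells it was at 1197 and 1254 CPM with vehicle, 774 and 841 with TAK-981, 651 and 667 with Dex and 514 and 568 with combo. Every treated library lay below both vehicle libraries, and the combo libraries lay lowest. In MM1R cells it was at 1451 and 1468 CPM with vehicle, 910.0 and 943 with TAK-981, 1421 and 1453 with Dex and 928 and 927 with combo. Here 1 Dex library lay between the vehicle libraries and the other just below them, and all 4 libraries with TAK-981 lay below all those without.

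TAK-981 lowered IRF4, at a log2 fold change of −0.60 (SE 0.058, edgeR adjusted p = 7.87e-08) in MM1S and −0.66 (SE 0.057, edgeR adjusted p = 3.13e-08) in MM1R cells. The difference between these 2 changes was −0.054 (95% interval −0.22 to 0.12, edgeR adjusted p = 0.742). Dex lowered it too in MM1S, at −0.90 (SE 0.058, edgeR adjusted p = 5.91e-10), and the line by Dex interaction was 0.87 (SE 0.081, edgeR adjusted p = 2.05e-07). Of all genes tested, 11.5% had a larger absolute change with Dex in MM1S.

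The partners of IRF4 moved in both directions. Counts of this list and of those below stand beside the share of all genes called. That share was 49.0% for TAK-981 in MM1S, 53.4% for TAK-981 in MM1R and 42.3% for Dex in MM1S. Of 10 partners that bind DNA with IRF4 (such as SPI1, BATF and IRF8), TAK-981 changed 2 higher and 1 lower in MM1S cells. In MM1R cells it changed 4 higher and 1 lower. TCF3, which encodes the E proteins E12 and E47, had the largest fall in both lines, at −0.65 and −0.71, and the largest rises were those of STAT3 in MM1S (0.55) and SPI1 in MM1R (0.57). Dex in MM1S changed 4 partners higher and 2 lower, led by IRF8 at 0.82 and TCF3 at −0.32. The medians of this list were 0.14, 0.25 and 0.27 in the 3 comparisons, against 0.037, 0.0043 and 0.011 over all genes tested. With 1 library left out, the TAK-981 counts in MM1S reached 4 higher (without the first TAK-981 library) and 2 lower (without the second), and the Dex count lower fell to 1.

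SPIB, an ETS partner of IRF4, was at 0.434 to 1.98 CPM over the 16 libraries. TAK-981 gave it −0.73 (adjusted p = 0.157) in MM1S and −0.71 (adjusted p = 0.0503) in MM1R cells, and the second value passed the threshold with RLE factors (0.0488), among others, and without the first TAK-981 library (adjusted p = 0.0325).

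Among 6 genes known as IRF4 targets in myeloma (MYC, KLF2, CDK6, STAG2, SCD and SQLE), TAK-981 changed 5 in MM1S cells, each of them lower, and lowered 3 and raised 2 in MM1R cells. SCD, a fatty acid desaturase, had the largest fall in each, at −2.09 and −1.41, and again with Dex in MM1S at −3.27, where 4 of the 6 were lower and 2 higher. The medians were −0.55, −0.33 and −0.27. Without the second MM1S vehicle library TAK-981 lowered 3 of the 6, and without the second Dex library Dex lowered 2. MYC was lower with TAK-981, at −0.68 (adjusted p = 4.45e-08) in MM1S and −0.56 (adjusted p = 5.38e-07) in MM1R, and was higher with Dex in MM1S at 0.39 (adjusted p = 5.53e-05), in which IRF4 was lower. KLF2, a factor that supports B cell homing and quiescence, went from 34.1 and 38.7 CPM with vehicle to 22.7 and 31.9 with TAK-981 in MM1S, and from 40.4 and 41.4 to 48.8 and 54.4 in MM1R.

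The KLF2 changes had opposite signs, −0.41 (adjusted p = 0.00821) and 0.33 (adjusted p = 0.0174), and the line by TAK-981 interaction was 0.75 (SE 0.16, edgeR adjusted p = 0.0143). That interaction ended without the second MM1S vehicle (0.0801), either MM1R vehicle (0.0627 and 0.0601) or the second MM1R TAK-981 library (0.0787). The MM1S call ended without the first TAK-981 library (adjusted p = 0.133, value −0.19) or the second vehicle library (0.0889). The MM1R call ended without the first vehicle (0.0874), the second vehicle (0.0627) or the second TAK-981 library (0.158).

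PRDM1 encodes Blimp-1, the repressor that shuts down the B cell programme (chromosome 6, from 106534195 to 106557814, plus strand, hg19). Its 16 libraries lay between 680.3 and 816 CPM. In MM1S cells it was at 727 and 729 CPM with vehicle, 726 and 680.3 with TAK-981, 759 and 699.8 with Dex and 682 and 727 with combo. In MM1R cells the values were 806 and 816 CPM with vehicle, 751 and 741 with TAK-981, 794 and 793 with Dex and 734 and 732 with combo. In MM1S the Dex libraries lay on either side of vehicle, and in MM1R all treated libraries lay below both vehicle libraries.

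Dex in MM1S gave PRDM1 a log2 fold change of 0.0029 with a 95% interval of −0.11 to 0.12, an estimate whose sign depended on the scaling of the libraries. TAK-981 gave −0.050 (SE 0.055, edgeR adjusted p = 0.471) in MM1S and −0.12 (SE 0.054, edgeR adjusted p = 0.0708) in MM1R. The MM1R value passed the threshold when only the groups compared were fitted (edgeR adjusted p = 0.00153). Combo against vehicle in MM1R was called at −0.15 (SE 0.054, edgeR adjusted p = 0.0323), a call that ended when any 1 of its 4 libraries was left out (adjusted p from 0.0889 to 0.135).

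Of 10 tested genes for corepressors and methyltransferases that Blimp-1 can recruit, or for their relatives, TAK-981 changed 1 higher and 3 lower in MM1S and 3 higher and 5 lower in MM1R cells. TLE3, which encodes a Groucho-type corepressor, had the largest rise in MM1S (0.47), and without the first TAK-981 library 1 gene was lower in place of 3. In MM1R the relative TLE1 rose most (1.08) and the arginine methyltransferase gene PRMT5 fell most (−0.39). Dex in MM1S changed 3, each of them higher, of which TLE1 rose most, at 2.74. The medians were −0.038, −0.14 and 0.15.

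XBP1 is the factor that drives secretory genes and is made active by an unconventional splicing of its mRNA by the sensor encoded by ERN1 (chromosome 22, from 29190548 to 29196560, minus strand, hg19). Gene counts do not separate the spliced from the unspliced form. In MM1S cells XBP1 was at 865 and 832 CPM with vehicle, 901 and 973 with TAK-981, 722 and 823 with Dex and 673 and 683 with combo. The MM1R libraries were at 1258 and 1324 CPM with vehicle, 1288 and 1328 with TAK-981, 1177 and 1319.5 with Dex and 1356 and 1331 with combo. Every MM1R library lay above every MM1S library, and within MM1S the combo libraries were lowest.

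Neither single drug changed XBP1 at the threshold, with 0.14 (SE 0.067, edgeR adjusted p = 0.0841) for TAK-981 and −0.13 (SE 0.067, edgeR adjusted p = 0.116) for Dex in MM1S cells. With all libraries kept, the Dex change was called lower at library size only (edgeR adjusted p = 0.0346) and with the replicate block (0.0395). The block also called the TAK-981 change higher (0.0296). Without the second Dex library the Dex value was −0.24 (edgeR adjusted p = 0.0138), and without the first TAK-981 library the TAK-981 value was 0.20 (0.036). In MM1R cells TAK-981 gave XBP1 0.019 (SE 0.067, edgeR adjusted p = 0.835), with a 95% interval of −0.12 to 0.16.

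Most targets of XBP1 were called lower, in comparisons where XBP1 mRNA itself was not called. Of all 14215 genes tested, 3374 and 3926 were lower with TAK-981 in MM1S and MM1R, and 3063 with Dex in MM1S. Of 23 endoplasmic reticulum genes known as XBP1 targets, 15 were lower and 4 higher with TAK-981 in MM1S cells, 14 lower and 2 higher in MM1R cells, and 18 lower and 2 higher with Dex in MM1S cells. Without the first MM1S vehicle library 2 were higher with TAK-981 in place of 4. The medians were −0.39, −0.39 and −0.53, against 0.037, 0.0043 and 0.011 over all genes tested. The largest falls were those of SEC24D, a coat protein of transport vesicles, at −0.89 with TAK-981 and −0.89 with Dex in MM1S, and of SDF2L1 at −0.98 with TAK-981 in MM1R.

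A few of these targets rose. EDEM1, which sends misfolded glycoproteins to degradation, rose by 0.43 and 0.37 with TAK-981, and HERPUD1, another part of that degradation, rose by 1.18 with Dex in MM1S.

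Of 9 genes for XBP1 splicing and endoplasmic reticulum sensing, TAK-981 changed 2 higher and 2 lower in MM1S, 2 higher and 3 lower in MM1R, and Dex 4 higher and 4 lower in MM1S, or 2 higher without the second Dex library. The medians were −0.14, −0.17 and 0.027. DDIT3, a stress-induced factor, rose most with TAK-981 (0.52 and 0.50), and the chaperone gene HSPA5 fell most in MM1R (−0.47). HSP90B1, another chaperone gene, fell most in MM1S, by −0.27 with TAK-981 and −0.83 with Dex. ERN1 gave 0.13 (adjusted p = 0.0896) and 0.17 (adjusted p = 0.025) with TAK-981 in MM1S and MM1R and 0.32 (adjusted p = 4.60e-04) with Dex in MM1S. Its TAK-981 change in MM1S was called with the replicate block (edgeR adjusted p = 0.0303). That change was 0.21 without the second vehicle library and 0.19 without the first TAK-981 library. The ERN1 call in MM1R ended without either vehicle library (0.109 and 0.0951) or the second TAK-981 library (0.19).

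IKZF1 and IKZF3 encode Ikaros and Aiolos, zinc finger factors that recruit chromatin remodelling complexes. They behaved differently from each other. IKZF3 (chromosome 17, from 37913968 to 38020441, minus strand, hg19) was at 576 and 573 CPM with vehicle, 927 and 890.4 with TAK-981, 879 and 880.0 with Dex and 973 and 1042 with combo in MM1S cells. All 6 treated libraries lay above both vehicle libraries. In MM1R cells it was at 650.4 and 659.7 CPM with vehicle, 1041 and 1001 with TAK-981, 642 and 643 with Dex and 1016 and 1004 with combo, so that all libraries with TAK-981 lay above all those without.

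The TAK-981 rise of IKZF3 was 0.66 (SE 0.051, edgeR adjusted p = 4.50e-09) in MM1S and 0.64 (SE 0.051, edgeR adjusted p = 8.22e-09) in MM1R cells, and the difference between them had a 95% interval of −0.17 to 0.13. Dex raised IKZF3 in MM1S by 0.61 (SE 0.051, edgeR adjusted p = 1.62e-08). The line by Dex interaction was −0.64 (SE 0.072, edgeR adjusted p = 1.86e-06).

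IKZF1 (chromosome 7, from 50344378 to 50472798, plus strand, hg19) was at 229 and 233 CPM with vehicle, 247 and 236 with TAK-981, 282 and 273 with Dex and 244 and 268 with combo in MM1S cells. The MM1R values were 227 and 231 CPM with vehicle, 221 and 223 with TAK-981, 221 and 225 with Dex and 231 and 217 with combo. The MM1S Dex libraries were the highest of the 16, and the MM1R libraries spanned a narrow range.

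With TAK-981 the IKZF1 change was 0.066 (SE 0.058, edgeR adjusted p = 0.373) in MM1S and −0.043 (SE 0.058, edgeR adjusted p = 0.556) in MM1R cells, with 95% intervals of −0.057 to 0.19 and −0.17 to 0.079. Dex in MM1S raised it by 0.27 (SE 0.058, edgeR adjusted p = 0.00122), an absolute change that 50.1% of all genes tested exceeded.

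The other Ikaros genes tested, IKZF2, IKZF4 and IKZF5, gave 0 edgeR calls in these 3 comparisons, with 0 at an unadjusted p under 0.05 and 0 by DESeq2. Their medians were 0.15, 0.27 and 0.050. With the replicate number as a block edgeR called 1 of them higher with TAK-981 in MM1S and 2 in MM1R. IKZF2 was at 6.15 to 9.91 CPM over all libraries, and its TAK-981 change was 0.15 (adjusted p = 0.506) in MM1S and 0.35 (adjusted p = 0.102) in MM1R cells. The MM1R change of IKZF2 was called with no filter on low counts (edgeR adjusted p = 0.0353) and with the replicate block (0.0383). It was also called with only the groups compared (0.00643).

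Of 16 genes of the Ikaros-associated remodelling complexes and the cereblon ligase, TAK-981 changed 4 higher and 7 lower in MM1S and 3 higher and 9 lower in MM1R cells, and Dex 5 higher and 2 lower in MM1S, or 3 higher without the first vehicle library. The medians were −0.098, −0.24 and 0.036. CRBN, which encodes cereblon, had the largest TAK-981 rise of the list in both lines. It went from 45.0 and 44.8 CPM with vehicle to 64.4 and 53.0 with TAK-981 in MM1S, and from 37.9 and 36.7 to 53.3 and 50.4 in MM1R, with log2 fold changes of 0.39 (SE 0.085, edgeR adjusted p = 9.61e-04) and 0.48 (SE 0.086, edgeR adjusted p = 1.40e-04). RBBP7, a histone-binding subunit of these complexes, fell most in all 3 comparisons, at −0.74, −0.74 and −0.49, and the corepressor gene CTBP1 rose most with Dex in MM1S, at 0.68. HDAC1 and HDAC2 are in this list and in that of the Blimp-1 corepressors.

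POU2F2 and POU2AF1 encode Oct-2 and its B cell coactivator OCA-B, which bind octamer elements in immunoglobulin promoters. The factor and the coactivator moved together with TAK-981 and apart with Dex. POU2F2 (chromosome 19, from 42590262 to 42636625, minus strand, hg19) was at 28.4 and 30.0 CPM with vehicle, 47.6 and 43.5 with TAK-981, 62.3 and 57.5 with Dex and 69.5 and 71.1 with combo in MM1S cells. The 4 groups did not overlap. In MM1R cells it was at 37.8 and 38.8 CPM with vehicle, 70.8 and 70.6 with TAK-981, 40.5 and 37.4 with Dex and 68.3 and 70.6 with combo, and the libraries again split by TAK-981 alone.

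TAK-981 raised POU2F2 by 0.64 (SE 0.074, edgeR adjusted p = 9.34e-07) in MM1S and 0.88 (SE 0.070, edgeR adjusted p = 7.82e-09) in MM1R cells. Dex raised it by 1.04 (SE 0.073, edgeR adjusted p = 1.76e-09) in MM1S, which is 2.05-fold, and only 8.39% of all genes tested had a larger absolute change. The line by Dex interaction was −1.01 (SE 0.10, edgeR adjusted p = 5.32e-07).

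POU2AF1 (chromosome 11, from 111222981 to 111250157, minus strand, hg19) was at 504 and 552 CPM with vehicle, 668 and 713 with TAK-981, 299 and 312 with Dex and 299 and 318 with combo in MM1S cells. The TAK-981 libraries lay above vehicle, and the Dex and combo libraries below it. MM1R libraries were at 539.9 and 551 CPM with vehicle, 646 and 648 with TAK-981, 552 and 528 with Dex and 648 and 668 with combo, so that those with TAK-981 lay above those without.

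Its TAK-981 rise was 0.39 (SE 0.058, edgeR adjusted p = 2.22e-05) in MM1S and 0.25 (SE 0.058, edgeR adjusted p = 0.00163) in MM1R cells, and its Dex fall in MM1S was −0.79 (SE 0.059, edgeR adjusted p = 3.86e-09). The line by Dex interaction was 0.78 (SE 0.083, edgeR adjusted p = 1.08e-06). Of 5 tested OCT factors and coactivators, TAK-981 changed 1 in MM1S and 2 in MM1R cells, each of them higher, and Dex in MM1S raised 2 and lowered 1. The medians were 0.16, 0.16 and 0.13. With 1 library left out the MM1S count with TAK-981 ran from 0 to 3 higher.

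POU2F1, the widely expressed relative that encodes Oct-1, gave 0.16 (adjusted p = 0.156) and 0.45 (adjusted p = 4.49e-04) with TAK-981, and was the gene that fell with Dex in MM1S, at −0.28 (adjusted p = 0.0201). That last call ended without the first vehicle (0.082), the second vehicle (0.0806) or the second Dex library (adjusted p = 0.246, value −0.15). CREBBP, a histone acetyltransferase gene, rose most with Dex in MM1S (0.36).

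BCL6, the repressor of the germinal centre state, showed the largest change of the 9 tested factors (chromosome 3, from 187439165 to 187463513, minus strand, hg19). In MM1S cells it had 44 and 31 counts with vehicle, 98 and 83 with TAK-981, 612 and 564 with Dex and 215 and 305 with combo. As CPM these were 2.07 and 1.59, 5.08 and 4.27, 31.7 and 28.4 and 13.3 and 16.8. The 4 groups did not overlap, and Dex stood highest. In MM1R cells BCL6 had 40 and 38 counts with vehicle, 55 and 46 with TAK-981, 28 and 26 with Dex and 67 and 65 with combo, or 1.65 and 1.57, 2.95 and 2.27, 1.22 and 1.13 and 3.03 and 3.13 CPM. All 8 MM1R libraries lay below every MM1S library with Dex or combo.

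Dex raised BCL6 in MM1S by 4.03 (SE 0.16, edgeR adjusted p = 6.78e-13), or 16.3-fold, and 0.338% of all genes tested had a larger absolute change. The line by Dex interaction was −4.48 (SE 0.32, edgeR adjusted p = 7.80e-09). TAK-981 raised it by 1.34 (SE 0.20, edgeR adjusted p = 2.39e-05) in MM1S and 0.69 (SE 0.23, edgeR adjusted p = 0.0159) in MM1R cells. The MM1R call ended without the second vehicle library (adjusted p = 0.0764) or the first TAK-981 library (0.17, value 0.49). LOC100131635, which overlaps BCL6 on the other strand, had at most 1 count in any library. PRDM1, the gene that BCL6 is known to repress, was not called in that Dex comparison.

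BACH2 encodes a repressor that delays the plasma cell step and pairs with small Maf proteins (chromosome 6, from 90636247 to 91006627, minus strand, hg19). In MM1S cells it was at 56.1 and 66.3 CPM with vehicle, 60.3 and 60.4 with TAK-981, 163 and 138 with Dex and 119.6 and 131 with combo. The libraries with Dex lay above the others, and the TAK-981 libraries lay between the 2 vehicle libraries. The MM1R libraries stood at 34.1 and 31.5 CPM with vehicle, 44.9 and 42.4 with TAK-981, 34.2 and 31.4 with Dex and 43.5 and 41.0 with combo, with TAK-981 and combo above vehicle and Dex.

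Dex raised BACH2 in MM1S by 1.30 (SE 0.087, edgeR adjusted p = 9.32e-10), or 2.46-fold, and the line by Dex interaction was −1.30 (SE 0.13, edgeR adjusted p = 4.20e-07). TAK-981 raised it in MM1R by 0.41 (SE 0.094, edgeR adjusted p = 0.00124), and in MM1S gave −0.018 (SE 0.089, edgeR adjusted p = 0.884). The line by TAK-981 interaction of 0.43 missed the threshold at an adjusted p of 0.068. The test passed without the first TAK-981 library of MM1S (0.0438) and with no filter on low counts (0.00724), and its adjusted p ran from 0.00724 to 0.256 over all alternatives.

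Of 12 corepressors and partners of BCL6 and BACH2, TAK-981 changed 3 higher and 1 lower in MM1S cells and 5 in MM1R cells, each of them higher, and Dex 2 higher and 1 lower in MM1S cells. The MM1R count was 3 when any 1 of its 4 libraries was left out. The medians were 0.048, 0.11 and 0.10. The small Maf genes MAFG and MAFF had the largest TAK-981 rises, at 0.46 in MM1S and 0.84 in MM1R. BACH1, the widely expressed relative of BACH2, was at 106 to 151 CPM, and gave 0.062 (adjusted p = 0.496) and 0.18 (adjusted p = 0.038) with TAK-981 in the 2 lines and −0.26 (adjusted p = 0.00696) with Dex in MM1S. With all libraries kept, its TAK-981 call in MM1R was lost with library size only (edgeR adjusted p = 0.0571). It was also lost with no filter on low counts (0.0512) and in DESeq2 (adjusted p = 0.0515). The TAK-981 call in MM1R ended when any 1 of its 4 libraries was left out (adjusted p from 0.0676 to 0.199), and the Dex call without the second Dex library (0.0916).

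PAX5, which fixes B cell identity (chromosome 9, from 36838531 to 37034476, minus strand, hg19), was close to absent. In MM1S cells it had 0 and 1 counts with vehicle, 2 and 5 with TAK-981, 4 and 4 with Dex and 6 and 5 with combo. In MM1R cells it had 2 and 2 counts with vehicle, 5 and 11 with TAK-981, 0 and 3 with Dex and 7 and 5 with combo. The 8 libraries with TAK-981 or combo held 2 to 11 counts and the 8 with vehicle or Dex 0 to 4. Since both vehicle groups had at most 2 counts in any library, no fold is given, and a difference between groups was not tested.

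Of 24 genes of B cell identity, 19 passed the filter. TAK-981 changed 6 higher and 4 lower in MM1S cells and 8 higher and 6 lower in MM1R cells. Dex changed 4 higher and 5 lower in MM1S cells. Of all genes tested, 49.0%, 53.4% and 42.3% were called in these comparisons, likewise in both directions. The medians of the list were 0.12, 0.16 and −0.11. Without the second vehicle library the Dex counts were 2 higher and 3 lower. The kinase gene SYK, which acts below the B cell receptor, fell most with TAK-981 (−0.88 and −1.07), and the rises were led by the adaptor gene BLNK in MM1S (0.77) and by CD40 in MM1R (0.91). With Dex in MM1S the complement receptor gene CR2 rose by 0.50 and CIITA, the activator of class II antigen presentation genes, changed by −1.33. TCF3 and SPIB are also in the list of IRF4 partners.

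Of 16 tested plasma cell effector genes, 2 were higher and 8 lower with Dex in MM1S, whereas TAK-981 changed 6 higher and 6 lower in MM1S and 6 higher and 7 lower in MM1R cells. The medians were −0.14, −0.018 and −0.24. CD38, a surface marker of plasma cells, fell most with Dex (−1.15) and the chemokine receptor gene CXCR4 rose most (3.19). With TAK-981 the largest rises were those of FCRL5 (0.78 in MM1S and 1.19 in MM1R), and the largest falls those of FKBP11 in MM1S (−0.68) and SUB1 in MM1R (−0.60). With only the groups compared, the FCRL5 rise in MM1S was 0.76 and was not called (edgeR adjusted p = 0.0616). The FCRL5 call in MM1S ended without the first vehicle library (0.122) or the first TAK-981 library (adjusted p = 0.279, value 0.42).

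SDC1, the gene of the plasma cell marker CD138, rose with Dex in MM1S from 495 and 500.4 to 667 and 762 CPM, at 0.52 (SE 0.070, edgeR adjusted p = 8.04e-06). The 7 plasma cell markers summed to 5438 to 5547 CPM with vehicle and 3422 to 3485 CPM with Dex in MM1S, and the 9 B lymphocyte markers to 70.9 with vehicle and 87.8 to 98.0 CPM with Dex. The plasma cell sum rests most on JCHAIN, at 1195 to 4763 CPM over all libraries, where SDC1, the next highest, reached 973 CPM. It therefore does not show the 7 markers moving together. With TAK-981 in MM1R the plasma cell marker sum was 6007 to 6076 CPM, against 7200 to 7239 CPM with vehicle. With TAK-981 in MM1S it was 4777 to 5486 CPM, overlapping the vehicle libraries, and with combo in MM1S 2742 to 2888 CPM. The 6 T and NK cell markers summed to 13.6 to 16.3 CPM with vehicle and 4.99 to 6.58 CPM with Dex in MM1S. The part of these marker levels in the drug changes of the factors was not tested.

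**Figure D4:**
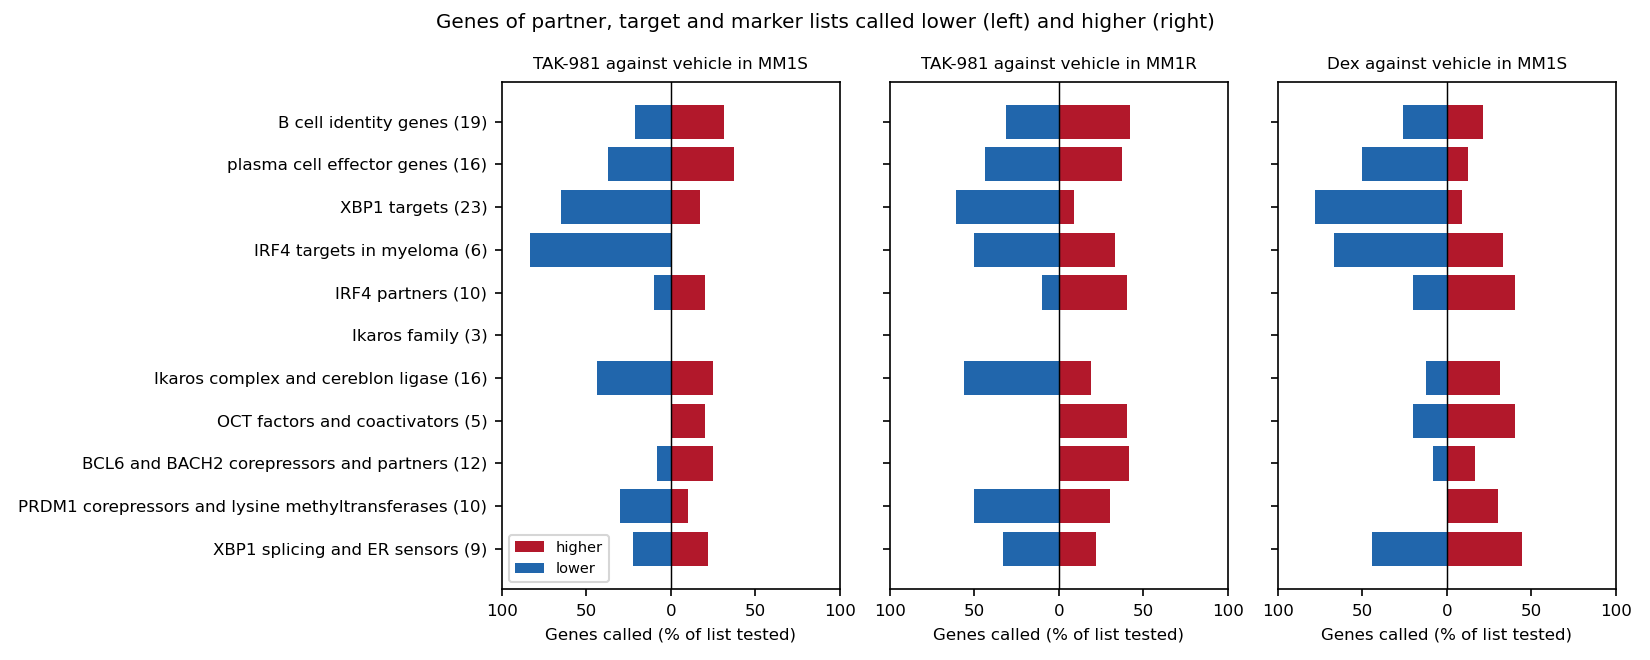
Share of each gene list called higher (red, to the right) and lower (blue, to the left) with TAK-981 in MM1S, TAK-981 in MM1R and Dex in MM1S, as percent of the genes of the list tested (number in brackets). The XBP1 targets lie mostly to the left in all 3 panels, with 15, 14 and 18 of 23 genes lower.

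To see how each drug acted in the presence of the other, combo was compared with each single drug. The single-drug and combo comparisons of a line share libraries and are given side by side. In MM1S cells combo against vehicle changed 8 of 9 factors, 5 higher and 3 lower, where 60.3% of all genes were called. Combo against TAK-981 changed 7 of 9 (4 higher, 3 lower; 35.1% of all genes), and combo against Dex 6 of 9 (2 higher, 4 lower; 47.6% of all genes). PRDM1 was the 1 factor not called in combo against vehicle, at −0.047 (SE 0.055, edgeR adjusted p = 0.47).

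In MM1R cells combo against vehicle changed 7 of 9, 5 higher and 2 lower (51.5% of all genes), and combo against Dex 6 of 9, 5 higher and 1 lower (48.4%). Combo against TAK-981 changed 0 of 9 in MM1R, with 0 at an unadjusted p under 0.05, and 0% of all genes were called by edgeR or DESeq2, with 214 and 50 genes at an unadjusted p under 0.05. Whether one drug altered the effect of the other was tested as the TAK-981 by Dex interaction, which was called for 6 of 9 factors in MM1S (14.9% of all genes) and for 0 of 9 in MM1R (0% of all genes). With only the groups compared, the MM1S calls of IRF4, XBP1, POU2AF1 and POU2F2 were lost, which left 2. In MM1R 1 factor, BCL6, had an unadjusted p under 0.05, and over all genes 400 did by edgeR and 160 by DESeq2, which also called 0 genes.

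The Dex rise of BCL6 in MM1S was smaller when TAK-981 was present. Dex added to vehicle gave 4.03, and Dex added to TAK-981 gave 1.69 (SE 0.15, edgeR adjusted p = 3.72e-08). TAK-981 alone raised BCL6, whereas TAK-981 added to Dex lowered it, at −0.99 (SE 0.12, edgeR adjusted p = 1.47e-06). The interaction was −2.34 (SE 0.23, edgeR adjusted p = 2.66e-06).

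IRF4 was lowest with both drugs, but on the log2 scale the combined fall was smaller than the sum of the single falls. Combo against vehicle in MM1S gave −1.18 (SE 0.058, edgeR adjusted p = 2.79e-12), combo against TAK-981 −0.58 and combo against Dex −0.29, and the interaction was 0.32 (SE 0.081, edgeR adjusted p = 0.0139). This interaction was lost without the second vehicle library (adjusted p = 0.0622), without the second combo library (0.0594) and when only the groups compared were fitted (0.113). In MM1R cells combo against vehicle gave −0.65 and combo against TAK-981 0.0018, with a 95% interval of −0.12 to 0.12.

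IKZF3 and POU2F2, which each drug raised alone in MM1S, rose less when the second drug was added. For IKZF3 the values were 0.61 for Dex added to vehicle and 0.15 for Dex added to TAK-981, with an interaction of −0.47 (SE 0.072, edgeR adjusted p = 2.87e-04). For POU2F2 they were 1.04 and 0.63, with an interaction of −0.41 (SE 0.10, edgeR adjusted p = 0.0111). The IKZF3 call of combo against TAK-981 ended without the second TAK-981 library (0.156) or the second combo library (0.2), and the POU2F2 interaction without the first vehicle library (adjusted p = 0.0686). With only the groups compared, the IKZF3 call of combo against TAK-981 (0.222) and the POU2F2 interaction (adjusted p = 0.0809) were lost.

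TAK-981 added to Dex raised IKZF3 by 0.20 (adjusted p = 0.00379) and POU2F2 by 0.23 (adjusted p = 0.0101). The POU2F2 call ended without the second Dex library (0.12) or the second combo library (adjusted p = 0.0588). The IKZF3 call ended with only the groups compared (adjusted p = 0.081).

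For POU2AF1, which TAK-981 raised and Dex lowered, combo stood at the Dex level. TAK-981 added to Dex gave 0.016 (SE 0.059, edgeR adjusted p = 0.842), with a 95% interval of −0.11 to 0.14, and Dex added to TAK-981 gave −1.16 (SE 0.059, edgeR adjusted p = 2.86e-11). The interaction was −0.37 (SE 0.083, edgeR adjusted p = 0.00573), and it was not called with only the groups compared (adjusted p = 0.0719).

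XBP1 was called lower in the 3 comparisons of combo in MM1S, and in neither single-drug comparison. Combo against vehicle gave −0.32 (SE 0.067, edgeR adjusted p = 4.05e-04), and Dex added to TAK-981 −0.47 (SE 0.067, edgeR adjusted p = 2.23e-05). TAK-981 added to Dex gave −0.19 (SE 0.067, edgeR adjusted p = 0.0266), and the interaction was −0.33 (SE 0.095, edgeR adjusted p = 0.0244). The call of TAK-981 added to Dex ended without the second Dex library (value −0.094, adjusted p = 0.327) or either combo library (0.105 and 0.072), and the interaction in 6 of the 8 fits that left out 1 MM1S library (adjusted p up to 0.14, without the second Dex library). With only the groups compared, neither the call of TAK-981 added to Dex (0.127) nor the interaction (adjusted p = 0.112) held.

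BACH2 stayed well above vehicle with combo, at 1.03 (SE 0.087, edgeR adjusted p = 7.82e-09), and TAK-981 added to Dex gave −0.27 (SE 0.084, edgeR adjusted p = 0.0144). That last call ended without the first Dex library (value −0.15, adjusted p = 0.198) or the first combo library (0.14). IKZF1 was called in combo against vehicle at 0.15 (SE 0.059, edgeR adjusted p = 0.0343), a call that ended without either vehicle library (0.138 and 0.0876) or without the second combo library (value 0.079, adjusted p = 0.329), with RLE factors (0.0523), in DESeq2 (0.0521), with no filter on low counts (0.0975) and with only the groups compared (0.0615).

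**Figure D5:**
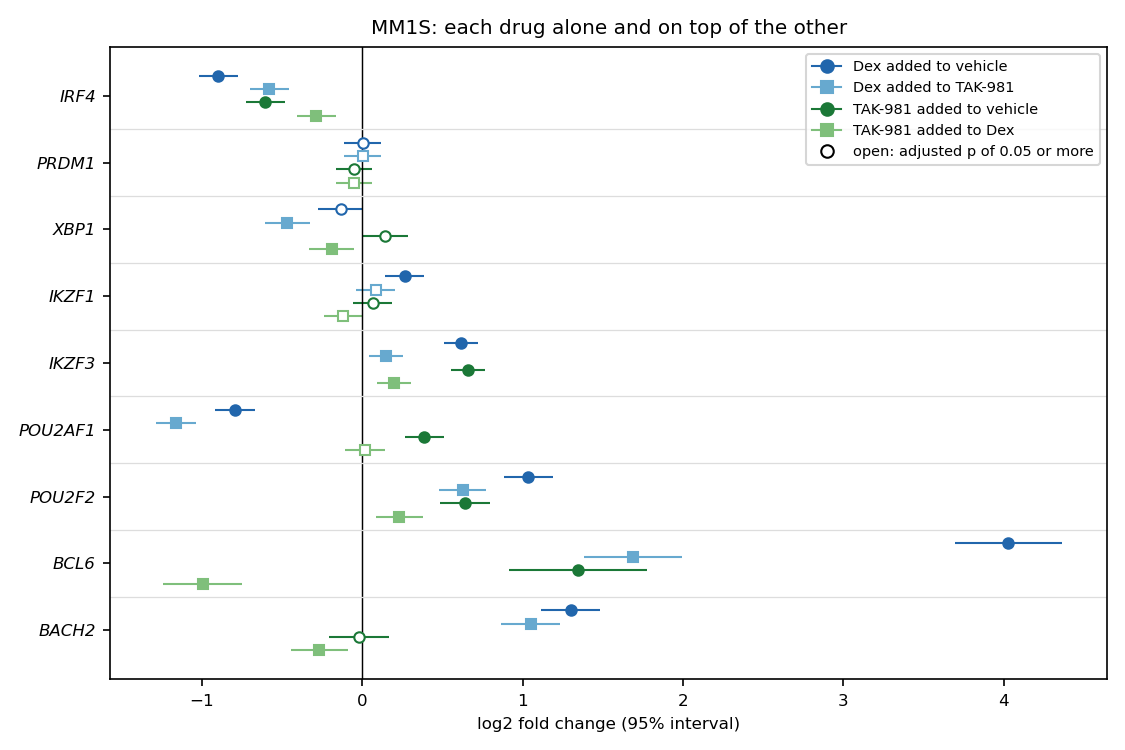
Log2 fold changes with 95% intervals of the 9 tested genes in MM1S cells, for Dex added to vehicle or to TAK-981 (blue circles and squares) and for TAK-981 added to vehicle or to Dex (green circles and squares). Filled marks have an edgeR adjusted p under 0.05. For BCL6 the 2 TAK-981 marks lie on opposite sides of 0, at 1.34 and −0.99.

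In MM1R cells combo differed from TAK-981 alone by −0.046 to 0.25 on the log2 scale over the 9 factors. Combo against Dex in MM1R gave IRF4 −0.63 (SE 0.057, edgeR adjusted p = 5.38e-08), IKZF3 0.65 (SE 0.051, edgeR adjusted p = 7.23e-09) and POU2F2 0.83 (SE 0.070, edgeR adjusted p = 1.80e-08). BCL6 gave 1.38 (SE 0.23, edgeR adjusted p = 7.75e-05), where the Dex libraries had 28 and 26 counts. BACH2 gave 0.37 (SE 0.094, edgeR adjusted p = 0.00353), with an adjusted p of 0.0501 without the second Dex library.

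The lines themselves were compared with vehicle alone. MM1R differed from MM1S in 6 of the 9 factors, 5 higher and 1 lower, where 48.2% of all genes were called. The plasma cell marker sum, in which JCHAIN weighs most, was 7200 to 7239 CPM in MM1R and 5438 to 5547 CPM in MM1S. The part of this sum in these differences was not tested. XBP1 was higher in MM1R by 0.61 (SE 0.067, edgeR adjusted p = 8.73e-07), POU2F2 by 0.39 (SE 0.074, edgeR adjusted p = 2.81e-04), IRF4 by 0.25 (SE 0.057, edgeR adjusted p = 0.0014) and IKZF3 by 0.19 (SE 0.051, edgeR adjusted p = 0.00485). BACH2 was lower, at −0.90 (SE 0.092, edgeR adjusted p = 3.50e-07), with both MM1R libraries below both MM1S libraries. PRDM1 was higher by 0.16 (SE 0.054, edgeR adjusted p = 0.0244), and this call ended when any 1 of the 4 vehicle libraries was left out (adjusted p from 0.0777 to 0.119) or when libraries were scaled by size only (0.197).

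IKZF1, POU2AF1 and BCL6 were not called between the lines, with 95% intervals of −0.14 to 0.11, −0.075 to 0.17 and −0.70 to 0.32. The list counts that follow stand beside 3637 genes higher and 3213 lower in MM1R among all 14215 tested, or 48.2% called. Among the lists, 9 of the 23 XBP1 targets were higher and 1 lower in MM1R, led by PDIA4, a protein disulfide isomerase (0.66). When only the groups compared were fitted, 15 were higher. Of the genes for XBP1 splicing and sensing, 5 were higher (3 without the first MM1S vehicle library) and 1 lower, with HSPA5 at 0.41 and EIF2AK3 at −0.37. Of the plasma cell effector genes, 7 were higher and 2 lower, with SDC1 at 0.86 and the integrin gene ITGA4 at −0.81.

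Of the B cell identity genes, 8 were higher in MM1R and 7 lower, with the kinase gene BTK at 2.42 and CIITA at −1.13. The Ikaros complexes and cereblon ligase had 9 genes higher and 1 lower, of which RBBP7 was highest (0.84) and CRBN was the 1 lower, at −0.27 (adjusted p = 0.0156), a call that ended without either MM1S library (0.0701 and 0.0638) or the second MM1R library (0.0987). The corepressors of Blimp-1 had 4 higher and 2 lower, from PRMT5 at 0.63 to TLE1 at −2.34. The partners of BCL6 and BACH2 had 2 higher and 4 lower (0 or 1 higher with any 1 library left out), with MAFF at −1.11, and the IRF4 partners 4 higher and 2 lower (2 higher without the first MM1S or the second MM1R library), with JUND at −0.61. Of the IRF4 targets 2 were higher and 1 lower (0 lower with any 1 library left out), with the sterol synthesis gene SQLE at 1.13. Of the OCT list 0 of 5 were called by edgeR, with 1 at an unadjusted p under 0.05, and 0 by DESeq2. Of the other Ikaros genes IKZF5 was lower, at −0.33 (adjusted p = 0.0493), a call that DESeq2 did not make (0.0543) and that ended with any 1 library left out (adjusted p from 0.0867 to 0.225).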

How the data were processed

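RNA was measured in 16 libraries of MM1S and MM1R cells, 8 groups of 2. The deposited values were raw read counts per gene and library, made by the authors with no normalization. The submitters' processing notes name bcl2fastq 2.18.0.12, STAR 2.6.0, HTSeq 0.6.0, edgeR 3.28.1 and hg19, with no roles, and the strand setting of counting is not given in the sources used here, so reads of overlapping antisense genes may not be separable. How the gene length column was made is likewise not given.

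Counts were analysed in R 4.3.3 with edgeR 4.0.16. Genes passing filterByExpr with a minimum count of 10 were kept (14215 of 23354), libraries were scaled by TMM, and 1 term per group was fitted over all 16 libraries with robust quasi-likelihood F tests (8 residual degrees of freedom). The Benjamini-Hochberg adjustment covered all genes tested in each of 15 contrasts, with calls at an adjusted p under 0.05. Log2 values used a prior count of 2. CPM were TMM-scaled, standard errors were taken from the F statistic, and 95% intervals used the fit's total degrees of freedom. The steps were tested on simulated counts with the same spread in every group. Since the real groups differed in noise, that test cannot give the error rate of these calls. Total counts ran from 15707587 to 24796539, so a gene at the level of BCL6 in vehicle rests on 31 to 44 counts a library.

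The 10 members and the lists of partners, targets and markers were chosen with earlier results of these data known. All members are reported. Each list is given by its counts, with at most the called gene of the largest rise and of the largest fall named where the mean log2 CPM was at least 1, and MYC, KLF2, CRBN, ERN1, SDC1, SPIB, BACH1, POU2F1 and IKZF2 were named by role. Alternatives were RLE factors, library size only, no filter, DESeq2 1.42.0, a replicate block, only the groups compared, a log2 fold change of at least 0.5, and each library left out. Replicate numbers of a line deviated together only weakly over 12 pairs of groups (r from −0.0134 to 0.263), so they were not treated as pairs. Promoter windows came from RefSeq GRCh38.p14 and were kept apart from the hg19 gene positions.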

Additional observations from a re-analysis of the deposited data

Results flagged for a closer look

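The response to Dex differed between the lines for 7 of the 9 tested factors, by the line by Dex interaction (MM1R change minus MM1S change, edgeR adjusted p under 0.05, where 28.1% of all genes were called). The interaction was −4.48 for BCL6, −1.30 for BACH2, −1.01 for POU2F2, −0.64 for IKZF3 and −0.30 for IKZF1, each of which rose with Dex in MM1S. It was 0.87 for IRF4 and 0.78 for POU2AF1, both of which fell with Dex in MM1S. All 7 interactions kept their call with another scaling, with no filter, with DESeq2, with the replicate block, with only the groups compared and with any 1 library left out. That of IKZF1 lay under a log2 fold change of 0.5, where 6 were called, and the share of all genes at that threshold was not counted.

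Of the genes named by role, MYC (−0.47), KLF2 (−0.61), ERN1 (−0.29), SDC1 (−0.58), BACH1 (0.30) and POU2F1 (0.39) had a line by Dex interaction. Those of MYC and SDC1 kept their call with any 1 library left out. That of KLF2 ended without the first MM1S vehicle library (edgeR adjusted p = 0.0521). The ERN1 interaction ended without the first MM1S vehicle library (0.131), the first MM1S Dex library (0.0531), either MM1R vehicle library (0.0591 and 0.0692) or the second MM1R Dex library (adjusted p = 0.06).

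For BACH1 and POU2F1 the interaction ended in 6 of the 8 fits that left out 1 library of the groups compared, with adjusted p up to 0.134 for BACH1 (without the second MM1S Dex library) and up to 0.177 for POU2F1 (without the first MM1R Dex library). The response to TAK-981 differed between the lines for KLF2, with an interaction of 0.75 that ended in 4 of the 8 such fits (adjusted p up to 0.0801, without the second MM1S vehicle library).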

How the results depend on the processing

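Of 528 values of the factors recomputed with all libraries, 503 kept their direction and their side of the threshold, 13 lost the call, 7 gained it and 5 changed sign. With 1 library left out, 381 of 424 kept both, 32 lost the call, 3 gained it and 8 changed sign. Each sign change was of a value that was not called, and the cause was not tested. PRDM1 with Dex in MM1S went to −0.0011 with RLE factors and with DESeq2, to −0.024 with library size only and to −0.0045 with only the groups compared. Between the lines POU2AF1 went to −0.017 with library size only, and POU2F1 to −0.055 with library size only and −0.011 with only the groups compared.

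With 1 library left out, TAK-981 gave BACH2 −0.14 to 0.10 and BACH1 −0.054 to 0.17 and IKZF2 −0.097 to 0.36 in MM1S, and XBP1 −0.020 to 0.054 in MM1R. Dex in MM1S gave PRDM1 −0.057 to 0.054, IKZF2 −0.31 to 0.25 and SPIB −0.50 to 0.19. Between the lines IKZF1 ran from −0.028 to 0.0016, POU2AF1 from −0.017 to 0.11, BCL6 from −0.36 to 0.019 and POU2F1 from −0.015 to 0.033. At a log2 fold change of at least 0.5, the factors called were 4 for combo against vehicle in MM1R, 1 for combo against Dex in MM1S, 2 between the lines and 1 for the TAK-981 by Dex interaction in MM1S. With only the groups compared and no fold threshold, that interaction was called for 2 factors in place of 6. The calls of IRF4, XBP1, POU2AF1 and POU2F2 were lost. The line by TAK-981 interaction was called for 1 factor, BACH2, with no filter, and for 0 to 1 with 1 library left out. With only the groups compared, the interaction in MM1S was called for 779 genes in place of 2125.

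The labels' replicate numbers do not say what they pair, and the check of their deviations did not treat them as pairs. With the replicate block the line by TAK-981 interaction was called for 1 factor in place of 0 (BACH2, edgeR adjusted p = 0.0164) and for 2061 genes in place of 592, and the TAK-981 by Dex interaction in MM1S for 3579 genes in place of 2125. The block added XBP1 in TAK-981 (0.0296) and Dex (0.0395) in MM1S and PRDM1 in TAK-981 in MM1R (0.0386). With no filter on low counts Dex in MM1R was called for 30 genes, combo against TAK-981 in MM1R for 9, the TAK-981 by Dex interaction in MM1R for 19 and the line by TAK-981 interaction for 1313. With only the groups compared combo against TAK-981 in MM1R was called for 3 genes. Library size only moved the median of all genes by at most 0.071. Of the other named genes 611 of 642 values kept direction and side with all libraries and 369 of 456 with 1 left out, and of the counts of list genes called 478 of 528 and 287 of 352 stayed within 1.5 times. With 2 libraries a group, BCL6 in vehicle (31 to 44 counts) and PAX5 (0 to 11 counts) limit what depth can show.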

Other observations

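The genes whose pattern over the 8 group means of log2 CPM was most like each factor were found among 11575 genes, by Pearson correlation. The groups share the lines and the drugs, so many genes can follow each pattern, and the values are a description. IRF4 was nearest to SKP2 (r = 0.998), DHCR7 and MANF (0.996 each). XBP1 was nearest to SHC1 (0.997), LAMB3 (0.994) and PRKD2 (0.993). PRDM1 was nearest to MRPS11 (0.993), FAM98A (0.991) and ARV1 (0.987).

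Among the Ikaros factors, IKZF3 was nearest to IQSEC1 (0.994), GBF1 (0.991) and SETD1B (0.989), and IKZF1 to VASP (0.989), DPH7 (0.987) and RAB11B (0.985). POU2AF1 was nearest to OTUD7B, BCL2L1 and RND1 (0.987 each), and POU2F2 to SNX2 (0.977), SLC24A1 and ZBTB45 (0.976 each). BCL6 was nearest to CDC42SE1 (0.991), MNT (0.988) and MAVS (0.987), and BACH2 to SCML4, LOC284454 and CELF1 (0.994 each). The highest r was lowest for POU2F2. No factor of the 10 was among the 3 genes nearest to another.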
